A study of Homo sapiens with 9 samples.

Results

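The Hippo pathway genes described here are YAP1, WWTR1, TEAD1, TEAD2, TEAD4, LATS1, LATS2, NF2, AMOTL2 and ANKRD1, taken by gene symbol from the table of estimated counts. All 10 were found among the 34826 rows that name a gene. The cells were TC71, a human Ewing sarcoma line, grown in NSG mice, which lack T, B and NK cells. They were recovered by flow cytometry from 4 bone marrow metastases, 4 lung metastases and 1 primary tumour. The design text states that each graft was 100 cells in Matrigel, injected subcutaneously, and that cells were collected once tumours measured 1.5 cm. All 3 groups share the line and the host, no other treatment or allele is named, and neither the mouse behind each library nor any pooling of mice is given.

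The Hippo pathway is a kinase relay that restrains growth when cells are crowded or detached. NF2, also called merlin, recruits the kinases LATS1 and LATS2 at the membrane, and LATS kinases phosphorylate the coactivators YAP1 and WWTR1 (the protein TAZ), which holds them in the cytoplasm. Unphosphorylated YAP1 and TAZ enter the nucleus, bind the TEAD transcription factors on DNA and switch on targets such as ANKRD1, AMOTL2 and LATS2. Much of this control acts on proteins, so transcript levels show the parts present and not their activity.

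TEAD factors recognise the letters GGAATG or their reverse complement. Promoter windows of 300 bases from RefSeq (GRCh38.p14) were matched for 8 of the 10 genes; TEAD1 and TEAD4 had no entry. Of 13 windows, 4 held the letters on either strand, 1 each for YAP1, LATS2, AMOTL2 and ANKRD1, against 14.0% of all 35116 windows in the same table. The 250 bases before the start of the target genes ANKRD1 and AMOTL2 are shown, each on the minus strand of its chromosome and written 5′ to 3′, with every match in capitals. ANKRD1 is at chr10:90921088-90921337 and AMOTL2, from the downstream of its listed start sites, at chr3:134374448-134374697.
ANKRD1: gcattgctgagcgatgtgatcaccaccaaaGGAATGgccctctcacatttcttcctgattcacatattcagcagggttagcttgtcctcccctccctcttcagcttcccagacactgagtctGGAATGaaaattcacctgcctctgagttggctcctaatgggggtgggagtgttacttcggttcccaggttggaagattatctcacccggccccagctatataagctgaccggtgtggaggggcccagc
AMOTL2: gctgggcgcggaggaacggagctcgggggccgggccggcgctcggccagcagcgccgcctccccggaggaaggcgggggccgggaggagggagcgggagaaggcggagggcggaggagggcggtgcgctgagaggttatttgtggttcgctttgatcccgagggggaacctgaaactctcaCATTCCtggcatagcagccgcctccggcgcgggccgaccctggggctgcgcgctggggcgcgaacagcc
A match is a description of these letters, not a measured binding site.

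Libraries held 11549085 to 17909775 estimated counts, so 1 count was worth 0.061 to 0.0848 CPM (the count scaled to library size with TMM factors). All 10 genes passed the filter on low counts, with 61.7 counts summed over the 9 libraries for ANKRD1, the fewest, and 5803 for NF2, the most. The smallest group has 1 library, so the filter could pass a gene on 1 library. It passed 17039 genes, against 12597 on the 8 metastasis libraries alone. Shares of all genes given below include genes that passed in this way. All 11 Ewing sarcoma markers were tested. Their summed level ran from 1847 to 2213 CPM in bone marrow libraries and 1795 to 2428 CPM in lung libraries, and was 2442 CPM in the primary library. Single markers were less even than the sum. STEAP1 ran from 574 to 1052 CPM, but CCK from 0.145 CPM in lung replicate 4 to 589.6 CPM in bone marrow replicate 1. LIPI ran from 0.0704 CPM in lung replicate 2 to 216.5 CPM in lung replicate 3, and PAX7 from 0.427 to 27.4 CPM. GLI1 was listed at 0 in 6 of the 9 libraries. NPY1R was at 35.8 to 88.9 CPM in metastases and 4.77 CPM in the primary library (DESeq2 adjusted p 0.000381, edgeR adjusted p 0.534). Of 12 leukocyte markers 4 were tested, with sums of 1.62 to 8.93 CPM in bone marrow, 0.526 to 17.4 CPM in lung libraries and 1.92 CPM in the primary library, and CSF1R at 0 throughout. Other lists had higher sums. Red cell markers summed to 16.65 to 104.5 CPM in bone marrow, 3.64 to 161.6 CPM in lung libraries and 8.45 CPM in the primary library. Stroma and muscle markers summed to 108 to 362, 163 to 419 and 297 CPM, and endothelial markers to 23.9 to 39.1, 27.6 to 30.7 and 24.0 CPM. Few genes carried these 2 lists. Over the 9 libraries DCN ran from 57.5 to 276 CPM and LUM from 22.4 to 217 CPM. COL1A1 was at most 6.04 CPM and PDGFRB at most 2.50 CPM, with COL3A1 at 16.8 CPM in bone marrow replicate 2. CDH5 ran from 22.1 to 29.5 CPM. PECAM1 was at most 2.20 CPM and KDR at most 0.141 CPM, with CLDN5 at 9.99 CPM in bone marrow replicate 1. Sums of 12 lung epithelial markers, 7 of them tested, were 21.5 to 307.7, 29.7 to 131 and 55.8 CPM, with SCGB1A1 and SFTPD at 0; 2 of the 7 had fitted values higher and 5 lower in bone marrow, and 0 passed in edgeR. At an unadjusted edgeR p below 0.05 were AGER, at 0 in all bone marrow libraries and at 1.17 and 1.41 CPM in lung replicates 2 and 3, and the keratin KRT8, which DESeq2 called (adjusted p 0.00239). KRT8 was at 89.2 CPM in bone marrow replicate 3 and at 0.0725 CPM, below every lung library, in bone marrow replicate 4. Human reads made up 78.6 ± 0.688% in bone marrow, 75.3 ± 1.97% in lung (SD, n = 4 each) and 78.1% in the primary library, and mitochondrial ribosomal RNA 0.158 ± 0.0559%, 0.432 ± 0.0657% and 0.057% of reads. Neither measure overlapped between bone marrow and lung. Estimated counts per library ran from 14157566 to 17909775 in bone marrow and from 11549085 to 13217988 in lung, with 12351831 in the primary library. Reads that were not aligned made up 18.94 to 20.32%, 20.37 to 24.65% and 19.7%. Library size and unaligned reads thus did not overlap between the sites either. The part of any of these measures in the results was not tested. Reads assigned to mouse made up 7.35 to 7.75% in bone marrow, 7.0 to 8.09% in lung and 7.45% in the primary library. The 4 measured markers of RNA quality summed to 2531 to 4877 CPM in bone marrow libraries, 3432 to 4547 CPM in lung libraries and 5505 CPM in the primary library; the sites overlapped and 0 of the 4 had an unadjusted edgeR p below 0.05. Some libraries had gaps: of genes averaging at least 10 CPM in the other 3 libraries of the site, 8.02% were less than 0.1 times that average in lung replicate 3 and 5.23% in lung replicate 4, against 1.07 to 3.41% in the other 6 metastasis libraries.

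The first comparison asked whether the metastases of the same line differed between bone marrow and lung. None of the 10 genes passed the edgeR test over all 17039 genes (Benjamini-Hochberg adjusted p below 0.05), in a comparison where 1 gene, or 0.00587%, passed. At an unadjusted edgeR p below 0.05 there was 1 of the 10, TEAD1, against 10.2% of all genes. DESeq2 called 1, TEAD1, against 2.75% of all genes, and limma voom called 0, against 0.0352%. TEAD1 and AMOTL2 were lower in every bone marrow library than in every lung library, 2 of 10 genes, where 3.05% of all genes had that order; 0 of the 10 had the opposite order, against 2.83%, and 5.88% of all genes had either. Fitted differences were positive for 5 and negative for 5 of the 10, with a median log2 fold change of -0.22, against 0.00 over all genes. In bulk RNA, fewer cells with a transcript and less of it per cell cannot be told apart.

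**Figure D1:**
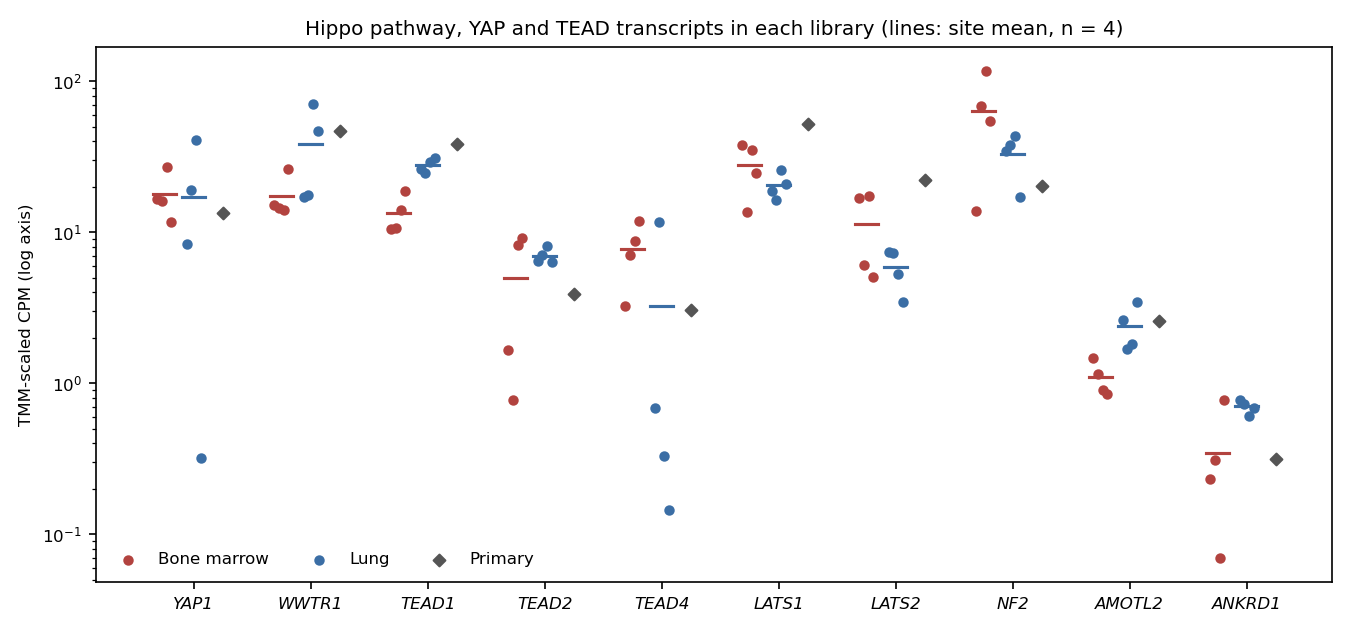
TMM-scaled CPM on a log axis for the 10 genes in each library, with bone marrow (red), lung (blue) and primary (grey diamonds) side by side and a line at the mean of the 4 libraries of a site. TEAD1 and AMOTL2 are lower in all 4 bone marrow libraries than in all 4 lung libraries, YAP1 is at 0.32 CPM in 1 lung library and TEAD4 is under 1 CPM in 3.

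Coordinates are those of GENCODE release 29 on GRCh38. Of the coactivators, YAP1 (chr11:102110461-102233423) was at 16.6, 16.02, 27.1 and 11.8 CPM in bone marrow replicates 1 to 4, at 8.42, 19.0, 41.0 and 0.32 CPM in lung replicates 1 to 4, and at 13.5 CPM in the primary library. Lung libraries spanned both ends of the range, from 4.40 estimated counts in replicate 4 to 495 in replicate 3, and the bone marrow libraries lay between. The log2 fold change was 0.06 ± 1.01 (SE; edgeR adjusted p 0.992), with a 95% interval of -2.22 to 2.34. Over 17 alternatives it ran from -0.35, without lung replicate 4, to 1.46 in limma voom, and it was 0.96 without lung replicate 3, -0.21 without bone marrow replicate 3 and -0.13 without lung replicate 1. It was negative in 4 of the 17, and none called YAP1.

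WWTR1 (chr3:149517235-149736714) was at 15.2, 14.6, 14.0 and 26.2 CPM in bone marrow replicates 1 to 4, at 17.1, 17.8, 71.1 and 47.2 CPM in lung replicates 1 to 4, and at 46.9 CPM in the primary library. A pair of lung libraries were high and resembled the primary library, while the other pair lay within the bone marrow range. The log2 fold change of -1.13 ± 0.55 did not pass (edgeR adjusted p 0.491, 95% interval -2.37 to 0.11), and it was -0.64 without lung replicate 3. Within lung, replicate 4 was the lowest library for YAP1 and the second highest for WWTR1. Antisense genes overlap YAP1, WWTR1, TEAD1, TEAD2, LATS1 and LATS2 in the annotation. The sources used here do not give the strand setting of the counting, so reads of such pairs may not be separable. Overlap was taken over whole gene spans, introns included. Shared exons were not checked, so it is not known whether any reads were affected.

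Set per kilobase of the longest annotated coding transcript (GENCODE release 29), YAP1 made up 50.5%, 50.6%, 64.3% and 29.5% of the summed YAP1 and WWTR1 level in bone marrow replicates 1 to 4. It made up 31.4%, 49.9%, 35.0% and 0.628% in lung replicates 1 to 4 and 21.2% in the primary library. With the median transcript length the shares were lower, 27.4%, 27.5%, 40.0% and 13.4%, then 14.5%, 27.0%, 16.6% and 0.234%, and 9.05%. The sites overlapped with both lengths, and the primary library lay below all metastasis libraries except lung replicate 4.

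TEAD1, one of the DNA-binding partners (chr11:12674591-12944483), was at 10.6, 10.7, 14.0 and 18.8 CPM in bone marrow replicates 1 to 4, at 26.5, 24.8, 29.5 and 31.3 CPM in lung replicates 1 to 4, and at 38.2 CPM in the primary library. The highest bone marrow library lay below the lowest lung library, and both sites lay below the primary library. Bone marrow libraries averaged 13.5 ± 3.84 CPM and lung libraries 28.0 ± 2.94 CPM (SD, n = 4 each). The log2 fold change was -1.05 ± 0.37 (SE), and edgeR gave an adjusted p of 0.446. DESeq2 gave an adjusted p of 0.0213, and over all 17 alternatives the adjusted p ran from 0.0213 to 0.659 and the log2 fold change from -1.25 to -0.93.

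The other factors were more uneven. TEAD2 (chr19:49340595-49362457) was at 1.66, 0.781, 8.30 and 9.20 CPM in bone marrow replicates 1 to 4, at 6.51, 7.13, 8.10 and 6.38 CPM in lung replicates 1 to 4, and at 3.92 CPM in the primary library. The bone marrow libraries lay on both sides of a narrow lung range (log2 fold change -0.50 ± 0.79, edgeR adjusted p 0.871). TEAD2 overlaps the coding genes CD37 and DKKL1 on the opposite strand. TEAD4 (chr12:2959330-3040673) was at 3.26, 7.07, 8.77 and 11.9 CPM in bone marrow replicates 1 to 4, at 0.682, 11.8, 0.331 and 0.145 CPM in lung replicates 1 to 4, and at 3.08 CPM in the primary library. Lung replicate 2 stood alone, since the other 3 lung libraries held at most 8.04 estimated counts and lay below every bone marrow library. The log2 fold change was 1.25 ± 1.26 (edgeR adjusted p 0.764). With 1 metastasis library left out it ran from 0.85 to 4.30, the highest without lung replicate 2. Over these fits the unadjusted edgeR p ran from 0.00139 to 0.515 and the adjusted p from 0.275 to 0.891. Lung replicate 2 is set apart by these same values, so the fit without it is no separate support.

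TEAD3, added to complete the family and not among the 10, was the most even of the 4 factors, at 42.4, 48.8, 48.4 and 31.9 CPM in bone marrow replicates 1 to 4, 44.2, 51.0, 26.8 and 45.5 CPM in lung libraries and 35.7 CPM in the primary library. Per kilobase of the longest transcript TEAD3 gave 45.2 to 78.7% of the summed TEAD level in bone marrow, 56.2 to 70.5% in lung and 60.1% in the primary library. The TEAD1 share was 5.73 to 9.34% in bone marrow, 9.76 to 21.8% in lung and 22.7% in the primary library, and the sites did not overlap. With the median transcript length the TEAD1 share was 11.3 to 17.0%, 18.1 to 40.2% and 39.4%, again without overlap between the sites. With that length TEAD3 was the largest share in every library except bone marrow replicate 4, where TEAD3 made up 34.7% and TEAD4 37.5%. Per kilobase of the longest transcript, the TEAD4 share was 10.7 to 29.6% in bone marrow, 0.397 to 23.3% in lung and 9.16% in the primary library.

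**Figure D2:**
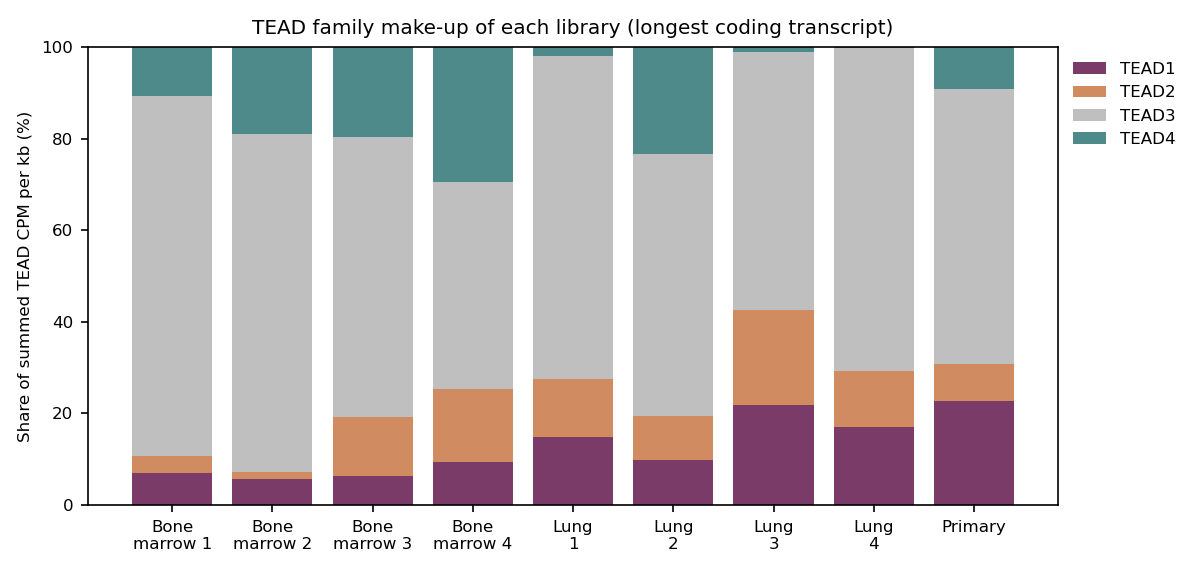
Share of the summed TEAD level, in CPM per kilobase of the longest coding transcript, taken by TEAD1, TEAD2, TEAD3 and TEAD4 in each of the 9 libraries. With this length TEAD3 is the largest share in every library (with the median length, TEAD4 is larger in bone marrow replicate 4), TEAD1 takes at most 9.34% in bone marrow, at least 9.76% in lung and 22.7% in the primary library, and TEAD4 is at most 1.92% in 3 of the 4 lung libraries.

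Of the kinases that restrain YAP1 and TAZ, LATS1 (chr6:149658153-149718256) was at 37.7, 13.7, 35.0 and 24.7 CPM in bone marrow replicates 1 to 4, at 18.9, 16.4, 25.9 and 20.8 CPM in lung replicates 1 to 4, and at 52.3 CPM in the primary library. LATS2, which is both a kinase and a YAP1 target (chr13:20973032-21061547), was at 16.9, 6.09, 17.5 and 5.08 CPM in bone marrow replicates 1 to 4, 7.47, 7.33, 5.32 and 3.45 CPM in lung libraries and 22.3 CPM in the primary library. The sites overlapped for both kinases, and bone marrow replicates 1 and 3 were the highest of the metastases for each. The log2 fold changes of 0.44 ± 0.42 for LATS1 and 0.95 ± 0.59 for LATS2 did not pass (edgeR adjusted p 0.747 and 0.577).

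NF2, the upstream activator of the kinases (chr22:29603556-29698598), was at 13.9, 69.1, 116.6 and 54.5 CPM in bone marrow replicates 1 to 4, at 34.7, 37.9, 43.2 and 17.2 CPM in lung replicates 1 to 4, and at 20.1 CPM in the primary library. Replicate 1 was the lowest of all 9 libraries, while the other 3 bone marrow libraries lay above every lung library. The log2 fold change was 0.93 ± 0.59 (edgeR adjusted p 0.583). It was 1.29 without bone marrow replicate 1 (edgeR unadjusted p 0.0174, adjusted p 0.385). Without bone marrow replicate 3 it was 0.46 (edgeR unadjusted p 0.457, adjusted p 0.891). These were the lowest and highest unadjusted p of the fits with 1 metastasis library left out.

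The targets AMOTL2 and ANKRD1 were scarce. AMOTL2, which binds YAP1 at cell junctions and so also restrains it (chr3:134355874-134375479), was at 1.48, 1.16, 0.905 and 0.847 CPM in bone marrow replicates 1 to 4, at 2.64, 1.69, 1.82 and 3.48 CPM in lung replicates 1 to 4, and at 2.59 CPM in the primary library. These values rest on 13 to 20 estimated counts in bone marrow, 22 to 47.9 in lung and 33.8 in the primary library. All bone marrow libraries were below all lung libraries, and the log2 fold change of -1.13 ± 0.58 did not pass (edgeR adjusted p 0.4997; 0.360 to 0.692 over 16 alternatives, DESeq2 included). ANKRD1, a nuclear ankyrin repeat protein (chr10:90912096-90921276), had 1.00 to 11.9 counts in bone marrow, 7.39 to 10.4 in lung and 4.09 in the primary library, or 0.0697 to 0.775, 0.612 to 0.778 and 0.314 CPM. The 3 lowest metastasis libraries were all bone marrow, but replicate 4 was close to the highest lung library, at 0.775 against 0.778 CPM (log2 fold change -0.99 ± 0.86, edgeR adjusted p 0.716).

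**Figure D3:**
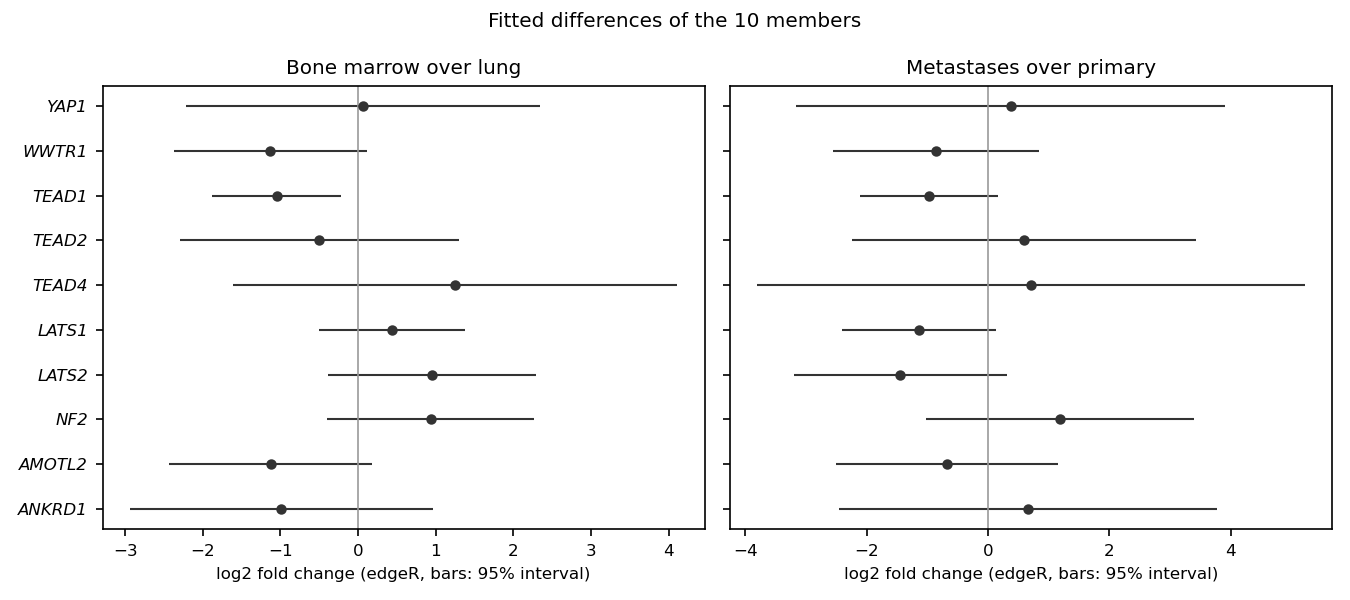
Log2 fold changes of the 10 genes from the edgeR fit, bone marrow over lung on the left and metastases over primary on the right, with 95% intervals as bars and a line at 0. The TEAD1 interval on the left, -1.89 to -0.21, is the only 1 of the 20 that does not cross 0, and none of the 20 adjusted p-values is below 0.05.

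Ordered by mean CPM per kilobase of the longest transcript over the 9 libraries, the levels were NF2 7.51, WWTR1 5.97, LATS1 3.63, YAP1 3.17, TEAD4 3.09, TEAD1 2.68, TEAD2 2.37, LATS2 1.84, AMOTL2 0.408 and ANKRD1 0.254. The ranges of every neighbouring pair in that order overlapped. Both genes of a pair were read in the same libraries, which such ranges ignore, so the overlap cannot show that a step is absent. With the median transcript length WWTR1 came first at 36.3 and NF2 second at 19.7 CPM per kilobase, TEAD1 moved up to the third place and ANKRD1 stayed last. The isoforms these cells use were not measured here.

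The second comparison set the metastases against the primary tumour library. It has 1 library on that side, so its test sets a single library against the variation seen among the metastases. None of the 10 genes passed in edgeR, DESeq2 or limma voom, where 0%, 0.558% and 0.282% of all genes passed, and none had an unadjusted edgeR p below 0.05, against 4.79% of all genes. The median log2 fold change over all genes was 0.17, and values here include that shift; over the 10 genes it was -0.15, with 5 positive and 5 negative.

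The primary library lay above all 8 metastasis libraries for 3 of the 10, TEAD1, LATS1 and LATS2, where 10.1% of all genes had that order, and below them for 0, against 7.59%. TEAD1 was at 10.6 to 31.3 CPM in metastases and 38.2 CPM in the primary library (log2 fold change -0.97 ± 0.50, edgeR unadjusted p 0.085). LATS1 was at 13.7 to 37.7 CPM in metastases and 52.3 CPM in the primary library (-1.13 ± 0.56, unadjusted p 0.0747). LATS2 was at 3.45 to 17.5 CPM in metastases and 22.3 CPM in the primary library (-1.44 ± 0.77, unadjusted p 0.0946). These 3 kept negative values in all 15 alternatives. Each alternative holds the same primary library, by which these 3 were picked, so the sign could hardly change and adds no support. For YAP1, WWTR1, TEAD2, TEAD4, NF2, AMOTL2 and ANKRD1 the primary library lay within the range of the metastases, and their log2 fold changes ran from -0.86 for WWTR1 to 1.19 for NF2.

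The wider pathway was read from lists of other genes, where ± beside a CPM value is the SD over the 4 libraries of a site. Of 18 tested core kinases and adaptors, 0 passed in edgeR between bone marrow and lung and 3 (SAV1, STK38L and TNIK) had an unadjusted p below 0.05, where 10.2% of all genes had one; 9 were higher and 9 lower in bone marrow (median log2 fold change 0.02). SAV1, the adaptor that joins the STK3 and STK4 kinases to LATS kinases, was at 20.1, 12.6, 15.8 and 18.9 CPM in bone marrow replicates 1 to 4, at 48.0, 47.7, 26.0 and 64.4 CPM in lung replicates 1 to 4, and at 17.9 CPM in the primary library. The sites did not overlap (log2 fold change -1.46 ± 0.39, edgeR adjusted p 0.355), and DESeq2 called SAV1 (adjusted p 0.00413). STK38L, a kinase of the same family as LATS1, was at 43.5 to 61.8 CPM in bone marrow, 8.63 to 31.5 CPM in lung libraries and 50.3 CPM in the primary library (1.34 ± 0.44, edgeR adjusted p 0.436, not called by DESeq2). The third was TNIK, which averaged 0.103 ± 0.0467 CPM over bone marrow libraries and 2.86 ± 5.55 CPM over lung libraries (SD, n = 4 each), with 11.2 CPM in lung replicate 3, and was listed at 0 in the primary library.

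Of 33 tested upstream and scaffold genes, 17 were higher and 16 lower in bone marrow (median log2 fold change 0.01); 0 passed in edgeR and 4 had an unadjusted p below 0.05, a share of 12.1%, near the 10.2% of all genes. The polarity scaffold PATJ, listed under its older symbol INADL, was at 13.4, 0.71, 1.15 and 7.20 CPM in bone marrow replicates 1 to 4, 0.273, 0.357, 0.215 and 0.563 CPM in lung libraries and 3.69 CPM in the primary library. Its sites did not overlap, and DESeq2 called it (adjusted p 0.00848, edgeR adjusted p 0.355). The LIM protein AJUBA, which inhibits LATS kinases, was at 13.5 ± 8.28 CPM in bone marrow, 3.17 ± 3.64 CPM in lung libraries and 1.80 CPM in the primary library. AMOT, which binds YAP1, averaged 0.224 ± 0.0772 CPM over bone marrow libraries and 3.70 ± 5.78 CPM over lung libraries (SD, n = 4 each), with 12.3 CPM in lung replicate 2. The polarity scaffold SCRIB averaged 0.0378 ± 0.0452 CPM and 0.706 ± 1.17 CPM, with 2.45 CPM in lung replicate 4.

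Of 17 tested regulators and nuclear partners, 9 were higher and 8 lower in bone marrow (median 0.03); 0 passed and 0 had an unadjusted edgeR p below 0.05, and neither DESeq2 nor limma voom called one. They included the YWHA genes, whose proteins hold phosphorylated YAP1 in the cytoplasm, and these went both ways. YWHAG was at 79.8 ± 19.7 CPM in bone marrow, 114.85 ± 23.1 CPM in lung libraries and 108 CPM in the primary library (log2 fold change -0.52). YWHAZ was at 2378 ± 467 CPM in bone marrow, 1863 ± 243 CPM in lung libraries and 2461 CPM in the primary library (0.35). The other YWHA genes also had fitted values of either sign.

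Of 21 tested YAP and TEAD targets other than the members, 7 were higher and 14 lower in bone marrow, a share of 33.3% higher, against 50% of all genes tested, and the median log2 fold change was -0.22; 0 passed in edgeR and 2, NT5E and AJUBA, had an unadjusted p below 0.05, a share of 9.52% against 10.2% of all genes. AJUBA, AMOTL1, PTPN14 and WWC1 stand in both this list and the scaffold list. The secreted matrix proteins CCN2 and CCN1, listed as CTGF and CYR61, are the most used readouts of YAP1 and TAZ; CCN1 was added outside the naming rule after its values were seen. CTGF was at 6.61, 17.9, 23.0 and 9.58 CPM in bone marrow replicates 1 to 4, at 34.6, 17.2, 33.6 and 20.9 CPM in lung replicates 1 to 4, and at 10.5 CPM in the primary library (log2 fold change -0.90 ± 0.52, edgeR adjusted p 0.539). CYR61 was at 38.6, 35.1, 11.3 and 26.1 CPM in bone marrow replicates 1 to 4, 38.5, 24.6, 0.166 and 42.9 CPM in lung libraries and 27.2 CPM in the primary library. It had 2 counts in lung replicate 3, the library with the highest YAP1 and WWTR1 but also with the largest share of gaps (8.02%). The log2 fold change of CYR61 was 0.06 ± 1.05. NT5E, a surface enzyme that makes adenosine, had 1 count in all bone marrow libraries together, was at 0.254, 2.39, 6.38 and 0 CPM in lung and at 6.67 CPM in the primary library; DESeq2 called it between the sites (adjusted p 0.0325, edgeR adjusted p 0.391).

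Against the primary library, 0 of the tested genes of these 4 lists passed in edgeR, DESeq2 or limma voom. An unadjusted edgeR p below 0.05 was found for 5, where 4.79% of all genes had one. They were 1 of 18 core kinases and adaptors (5.56%), 1 of 33 upstream and scaffold genes (3.03%), 0 of 17 regulators and partners, and 3 of 21 targets (14.3%). The kinase MAP4K4, which can phosphorylate LATS kinases, was at 33.4 ± 19.0 CPM in bone marrow, 31.4 ± 10.8 CPM in lung (SD, n = 4 each) and 125 CPM in the primary library (log2 fold change -1.95 ± 0.68, edgeR adjusted p 0.925). The scaffold WWC2 was at 0.0532 ± 0.106 CPM, 0.333 ± 0.63 CPM and 8.21 CPM. Among targets, CRIM1 was at 10.3 ± 7.67 CPM, 19.3 ± 10.1 CPM and 52.3 CPM, and NT5E was again highest in the primary library. BIRC5, an inhibitor of cell death, had the opposite order, at 1116 ± 191 CPM in bone marrow, 974 ± 79.6 CPM in lung libraries and 589.6 CPM in the primary library (0.82 ± 0.26, edgeR adjusted p 0.821).

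**Figure D4:**
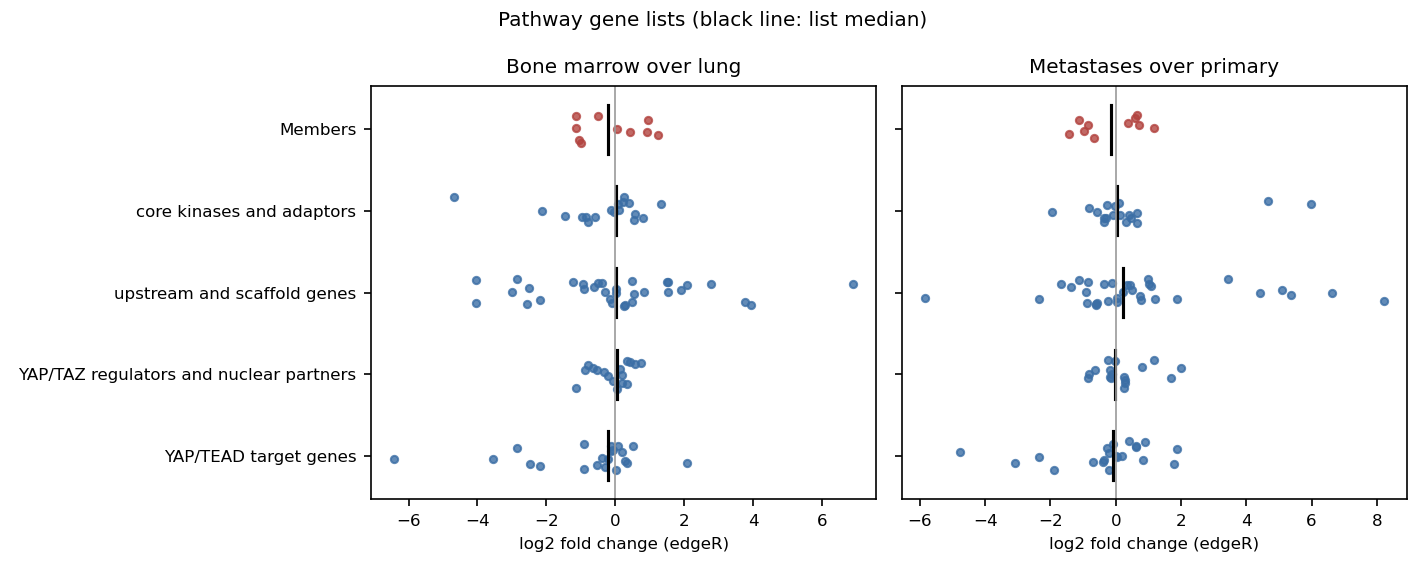
Log2 fold changes of the 10 members and of the tested genes of 4 other pathway lists, bone marrow over lung on the left and metastases over primary on the right; each point is a gene and the black line is the list median. List medians lie between -0.22 and 0.03 on the left and between -0.15 and 0.22 on the right, and single genes spread to both sides.

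The genes whose pattern over the 9 libraries was nearest to that of YAP1 were CCDC107, RP11-298I3.5 and MRPL10, with mean absolute differences of 0.220, 0.312 and 0.376 in log2(CPM + 1), each gene centred on its own mean, where YAP1 itself deviated by 0.888 on average. CCDC107 was at 34.4 CPM in lung replicate 3 and 0.122 CPM in lung replicate 4, so it shared the high and the low library of YAP1. Nearest to WWTR1 were EFCAB10, PLLP and TRMT10B, at 0.267, 0.303 and 0.303, where WWTR1 deviated by 0.725. PLLP and TRMT10B were highest in lung replicate 3, at 32.0 and 23.9 CPM, as WWTR1 was. These are the closest of 17038 genes over 9 libraries that share lung replicates 3 and 4 with their gaps.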

How the data were processed

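RNA was measured in 9 libraries of sorted TC71 cells, with cDNA made from small RNA inputs by template switching (per the labels' protocols). The authors deposited estimated counts per gene symbol, as raw values with no depth scaling; the submitters' processing notes name Trim Galore, Salmon and hg38, with no tool versions. A second deposited table gives the percent of reads per species, the fraction of reads per counting category and a read length of 151 bases, and the sources used here do not say how it was made. Rows of 12 vector genes, 92 spike-ins and 4 with a repeated name, 108 of 34934 in all, held at most 0.0185% of a library and were left out. Counts were rounded to whole numbers, filtered with filterByExpr, scaled by TMM and fitted with edgeR 4.0.16 quasi-likelihood, all 9 libraries and 3 groups in 1 model, adjusted over 17039 genes at 0.05. CPM values use the unrounded counts. Standard errors are the absolute log2 fold change over the square root of F. DESeq2 1.42.0, limma 3.58.1 voom with quality weights, other scalings and filters and left-out libraries were alternatives. All 36 pairs of libraries differed beyond sampling noise (lowest chi-square per degree of freedom 79.9). Labels do not tie libraries to mice, so the p-values reflect only how these samples vary, which may be technical. The members and gene lists were chosen with earlier results of these data known. Named were the 10 members and the 3 genes nearest in pattern to YAP1 and to WWTR1. From each other list, genes were drawn among the 6 and 4 with the smallest p in the first and second comparison. Not all of these are described. Promoters are RefSeq's and coordinates GRCh38.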

Additional observations from a re-analysis of the deposited data

Results flagged for a closer look

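Of 20 sets of 4 libraries, 10 genes at 2 sites, 2 had a library far from the others by Dixon's test at 95%, and chance gives about 1 in 20. WWTR1 in bone marrow replicate 4 was at 26.2 CPM, with a gap to the next library of 0.901 of the range. TEAD4 in lung replicate 2 was at 11.8 CPM, with a gap of 0.954 of the range.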

How the results depend on the processing

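Between bone marrow and lung, 1 gene of all passed in edgeR; 3 passed with at least 5 CPM in at least 4 libraries, 468 in DESeq2, 6 in limma voom, 0 without both bone marrow replicate 1 and lung replicate 3, 0 with the replicate number as a block on the 8 metastasis libraries, and 0 with any 1 metastasis library left out (0 to 0). Against the primary library 0 passed in edgeR, 0 with any metastasis library left out, 95 in DESeq2 and 48 in limma voom. Few of all genes passed in most fits, so a member's side of the threshold was nearly fixed in advance. DESeq2 gave no adjusted p for ANKRD1, which was counted as not passing. Of 316 values of the 10 members under alternatives, 306 kept their direction and side of the threshold, 1 (TEAD1 in DESeq2) passed and 9 changed sign. Those of YAP1 between sites were -0.026 with the 5 CPM filter, -0.21 without bone marrow replicate 3, -0.13 without lung replicate 1 and -0.35 without lung replicate 4, the lowest of the left-out fits; the highest was 0.985, without bone marrow replicate 1 and lung replicate 3. Against the primary library YAP1 was -0.42 in limma voom, -0.06 without bone marrow replicate 1 and lung replicate 3 and -0.12 without lung replicate 3 (0.58 without lung replicate 4), and TEAD4 -0.13 in limma voom and -0.82 without lung replicate 2 (1.02 without bone marrow replicate 1 and lung replicate 3). The cause of these changes was not tested. The block changed no call of a member (TEAD1 -1.10, edgeR adjusted p 0.659; TEAD4 3.17, adjusted p 0.692). Libraries with the same number did not deviate together (correlations across genes -0.0558 to 0.0368 over 4 pairs, 1 of 4 bone marrow libraries correlating best with its own number), so the numbers were not taken to pair them. AMOTL2 and ANKRD1 gave no value with the 5 CPM filter. Low counts limit ANKRD1, AMOTL2, and TEAD4 and YAP1 in single lung libraries, where a floor of 3 counts is 0.211 to 0.254 CPM.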
